A study of Mus musculus with 4 samples.

Results

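The genes described here are 36 genes of smooth muscle contraction and of the actin cytoskeleton that carries it. They were listed by name, and each was read on its brightest probe set, by mean log2 signal over the 4 arrays. All 36 listed genes had a probe set, among 18193 genes on the array. Together they had 77 probe sets that the platform annotation pairs with 1 gene, and 34 of the 36 were bright enough to be tested, among 11694 genes tested. Synm, at a mean log2 level of 8.67, and Kcnmb1, at 6.92, lay below the limit of 8.69, and Ppp1r14a, at 8.98, was the dimmest gene above it. The samples were tracheas of C57BL/6 mouse embryos at embryonic day 16. There were 2 wild-type samples and 2 samples labelled a1H knockout, numbered 1 and 2 in each genotype, with 1 Affymetrix array each. The label a1H is taken as Cacna1h, which encodes the pore of a T-type calcium channel. Neither the deleted allele nor the embryos and litters behind each sample are stated in the sources used here. P-values therefore measure the spread between these 4 arrays alone, and that spread may be technical.

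Smooth muscle cells lie in the dorsal wall of the trachea, across the gap between the ends of the cartilage rings. They contract when calcium binds calmodulin and switches on myosin light chain kinase, which phosphorylates the regulatory light chain so that smooth muscle myosin pulls on actin filaments, and myosin phosphatase reverses this step. The force passes through dense bodies and integrin plaques to the matrix. Serum response factor (SRF) binds a DNA element called the CArG box in the control regions of many of these genes, and its partner myocardin makes that binding drive the muscle programme.

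CArG boxes were looked for in RefSeq promoter windows (assembly GRCm38.p6), which run from 250 bases before each annotated start to 50 after it. The box reads the same pattern on both strands. Windows were found for 31 of the 36 genes, and at least 1 CArG box was present for 6 of these 31 genes, or 19.4%, against 1.81% of all 27025 genes with a window. The genes were Srf, Myl9, Cnn2, Vcl, Fhl1 and Myl6. When 1 inner base was allowed to be G or C, 11 of 31 genes had a box, or 35.5%, against 11.3% of all genes. The TATA box (TATAAA, either strand) was present for 16.1% of the genes and 15.7% of all genes. Sequences around boxes of Srf, Myl9, Cnn2, Vcl and Fhl1 are shown because these are the element through which the genes are thought to be read together, and that of Acta2 because it is the usual marker of the lineage. Each reads 5′ to 3′ on the strand of the gene, with the box in capitals. Matches are descriptions of letters in a window and not evidence of binding.
Srf, chr17:46556215-46556244, minus strand: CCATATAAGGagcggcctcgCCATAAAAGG
Myl9, chr2:156775278-156775337, plus strand: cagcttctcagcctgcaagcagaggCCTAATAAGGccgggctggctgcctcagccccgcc
Cnn2, chr10:79988519-79988578, plus strand: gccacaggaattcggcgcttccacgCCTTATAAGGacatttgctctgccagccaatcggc
Vcl, chr14:20929148-20929207, plus strand: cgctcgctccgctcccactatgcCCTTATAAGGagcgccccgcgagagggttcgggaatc
Fhl1, chrX:56779571-56779600, plus strand: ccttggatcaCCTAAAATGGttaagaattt
Acta2, 1 inner C, chr19:34255438-34255467, minus strand: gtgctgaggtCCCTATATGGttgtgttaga

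The pair of Srf boxes shown lies within the 82 bases before the start, with 10 bases between them. The 6 genes with an exact box are described with their roles below. None of them was among the 6 lowest in the labelled knockout, and Cnn2 was among the 6 highest. No window was found for Myh11, Tagln, Actg2, Myocd and Tgfb1i1. Of these, Actg2, Myh11 and Myocd were among the 6 lowest and could not show a box here.

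The arrays differed in more than genotype, and values that touch these genes are given here once. Cacna1h itself was not lower in the labelled knockout, with 629.5 and 538 in wild type against 981 and 631 in the labelled knockout on its brighter probe set. Which exons the deletion took is not stated in the sources used here, so this does not check the labels, and directions below rest on them. Array medians lay between 320 and 459, with knockout replicate 2 the lowest. The 99th percentile of signal was 20907 and 22432 on the replicate 2 arrays of wild type and labelled knockout, against 15924 and 16089 on the replicate 1 arrays. The 3′ to 5′ ratio of the actin control probe sets, which rises as RNA gets shorter, was 1.69 and 1.66 on the wild-type arrays against 1.90 and 1.97 on the knockout arrays. That of Gapdh overlapped, at 1.26 and 1.40 against 1.36 and 1.61. Placental transcripts summed to 94070 on knockout replicate 2 (3 of 4 listed genes measured) and to between 209 and 490 on the other arrays. The 6 genes taken to define the smooth muscle lineage (Acta2, Myh11, Tagln, Cnn1, Myocd and Lmod1) were read on all arrays, with 331 the lowest signal, for Lmod1 on knockout replicate 2. Airway smooth muscle, the muscle of vessels and of any attached oesophagus share these genes, and in whole tissue fewer cells of a type and less RNA per cell cannot be told apart.

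Between the genotypes none of the 34 tested genes passed limma's test at a Benjamini-Hochberg adjusted p of 0.05, where 0% of all genes tested passed, and the smallest adjusted p among them was 0.875. Before adjustment 2 genes had a p under 0.05, Actg2 lower and Pdlim7 higher in the labelled knockout, where 4.58% of all genes were below that p. Taken as knockout minus wild type, the log2 difference had a median of -0.08 over all 36 genes, and 24 were lower, against a median of 0.04 and 44.1% lower over all genes tested. Centring each array on its median turned the set's median to 0.15, with 8 of 36 lower, and moved all genes to 0.27 with 17.4% lower. Groups did not overlap, with the labelled knockout lower, for 4 of the 36 genes (Actg2, Mylk, Itga8 and Vcl), where 14.6% of all genes did so. They did not overlap with the labelled knockout higher for 5 (Cnn2, Smtn, Des, Itga5 and Pdlim7), where 21.5% of all genes did so. With centring these counts became 4 and 10, against 524 and 4634 of the 11694 genes tested. With all probe sets of a gene averaged they became 9 and 3, against 2606 and 1839 of the genes tested. After quantile normalization they were 3 and 5, against 1795 and 2904 of the genes tested. Mylk and Vcl then overlapped, and Ppp1r14a was lower without overlap. SEs of the log2 differences ranged from 0.17 to 0.65.

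**Figure D1:**
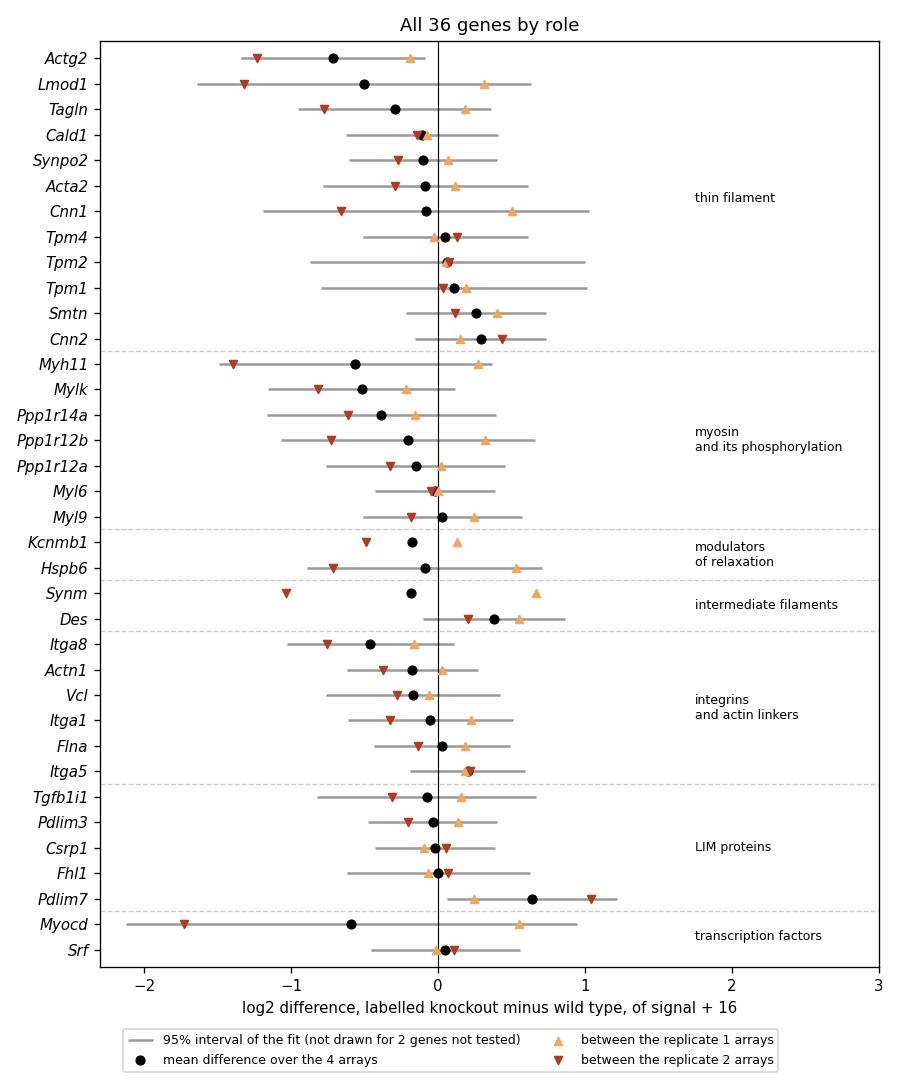
Log2 differences of signal + 16, labelled knockout minus wild type, for all 36 genes grouped by role, with the 95% interval of the limma fit and the differences between the arrays of each replicate number. For 25 of 36 genes the replicate 1 difference lies above 0 and for 25 the replicate 2 difference lies below 0. Over the 11694 genes tested these counts were 6441 and 5316. With arrays centred on their medians they were 32 and 14 of the 36 genes, against 8280 and 2020 of the genes tested.

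The arrays that share a replicate number were also compared with each other. The median log2 difference was 0.14 within replicate number 1 and -0.29 within replicate number 2, whereas over all genes tested these were 0.03 and 0.04. With arrays centred they were 0.24 and 0.08, against 0.13 and 0.41 over all genes. Of the 36 genes, 18 (50.0%) were higher in the labelled knockout within number 1 and lower within number 2. That pattern was held by 19.1% of all genes tested. Within both numbers 7 of the 36 were lower and 7 higher, against 3080 and 4205 of the 11694 genes tested. The lowest of the 4 signals was on knockout replicate 2 for 19 of 36 genes, or 52.8%, against 32% of all genes. That count was 26 after quantile normalization (27.6% of all genes) and 12 after centring (8.53% of all genes). On knockout replicate 2, 3 genes (Myh11, Lmod1 and Myocd) read under 0.5 times the lowest of the other arrays, or 8.33%, as did 1.17% of all genes. Without knockout replicate 2 the median of the set was 0.08 and 15 genes were lower. These patterns were seen in the data and then counted.

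**Figure D2:**
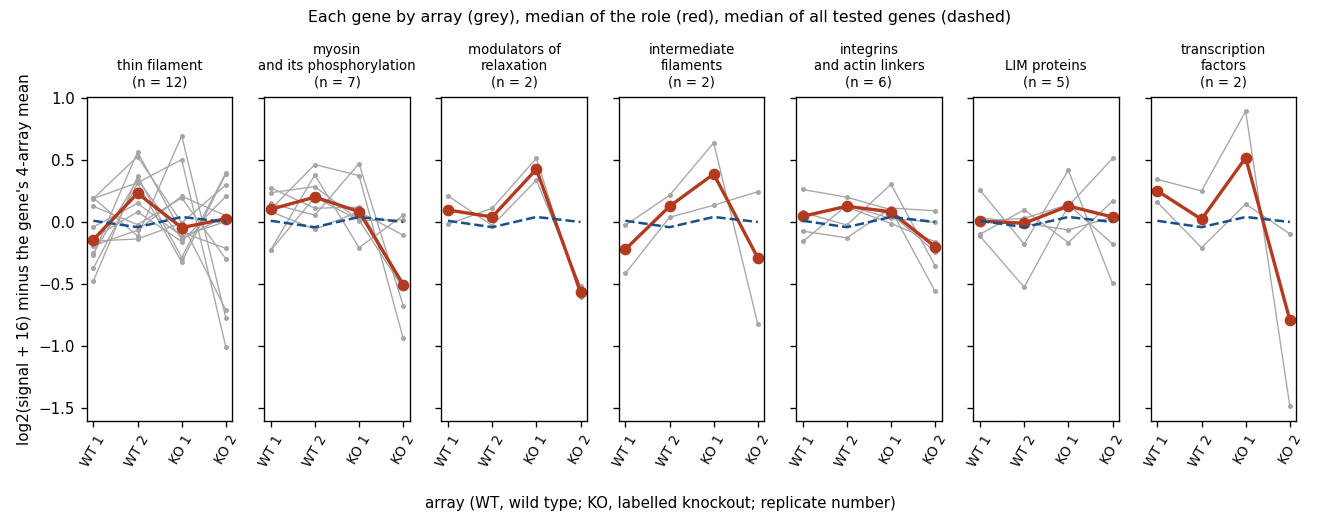
Each gene's log2(signal + 16) on each array minus its mean over the 4 arrays (grey, lines join the values of 1 gene), the median of each role (red) and of all genes tested (dashed blue). On knockout replicate 2 the median was -0.50 for the 7 genes of myosin and its phosphorylation and 0.03 for the 12 of the thin filament. The differences between the replicate 2 arrays had medians of -0.62 and -0.21 in these roles, and of -0.25 and 0.15 with arrays centred. Over all genes tested the median of these differences was 0.04, and 0.41 with arrays centred.

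Myocardin had the largest SE of a log2 difference among the tested smooth muscle genes. Myocd, which encodes this coactivator of SRF in smooth and cardiac muscle, read 4083 and 3829 in wild type against 5975 and 1141 in the labelled knockout (replicate 1, then 2). Wild type lay between the arrays of the labelled knockout, 1 of which was the highest and 1 the lowest of the 4. The log2 difference was -0.59 with an SE of 0.65 (limma adjusted p = 0.905), made up of 0.55 within replicate number 1 and -1.73 within number 2. A second Myocd probe set, below the limit for testing, gave -0.01, with 0.12 and -0.15 within replicate numbers 1 and 2. With probe sets averaged Myocd had -0.30. The SRF gene itself had a small mean difference. Srf read 2943 and 2281 in wild type against 2913 and 2465 in the labelled knockout, giving a log2 difference of 0.05 with a 95% interval from -0.46 to 0.55. On a dimmer Srf probe set the difference was -0.26.

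**Figure D3:**
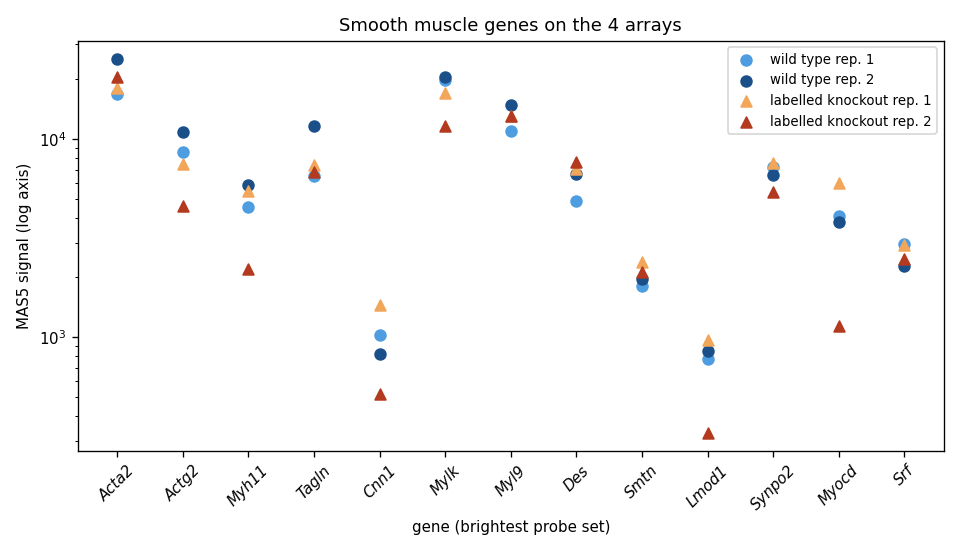
MAS5 signals (log axis) of 13 genes on the brightest probe set of each, 1 point per array, with circles for wild type and triangles for the labelled knockout. Knockout replicate 2 is the lowest point for Myh11, Myocd, Cnn1, Lmod1, Actg2, Mylk and Synpo2 (for Synpo2 not with centred arrays), whereas Acta2, Tagln, Myl9, Des, Smtn and Srf do not have their lowest point there (with quantile normalization the first 3 do).

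Among the 12 thin filament genes, 7 were lower and 5 higher, and with centred arrays 3 were lower. The actins differed from each other. Acta2, the alpha smooth muscle actin used to mark the lineage, read 16740.2 and 25172 in wild type against 18111 and 20569.5 in the labelled knockout, so the knockout arrays lay between those of wild type. Its mean was 20956 ± 5962 against 19340.3 ± 1738 (SD, n = 2 each). The log2 difference was -0.09 (SE 0.30), and 0.14 after centring. With its probe sets averaged Acta2 had -0.47, lower without overlap. Its other probe sets, below the limit for testing, gave -0.54 and -0.79. Actg2, the gamma smooth muscle actin best known from gut and other visceral muscle, read 8589 and 10859 in wild type against 7504 and 4603 in the labelled knockout, without overlap. Its log2 difference was -0.71 (SE 0.27, unadjusted p = 0.031, limma adjusted p = 0.875), or 0.609 times wild type, with -0.19 and -1.24 within replicate numbers 1 and 2. Actin transcripts are much alike, and whether these probe sets bind more than 1 of them was not tested.

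Proteins that bind the thin filament differed in whether knockout replicate 2 stood apart. Tagln, or transgelin, an early actin-binding marker of the lineage, read 6532 and 11606 in wild type against 7414 and 6777 in the labelled knockout, where wild-type replicate 2 alone was high. Cnn1, the calponin of differentiated smooth muscle, read 1028 and 827 against 1459 and 518, with the knockout arrays on both sides of wild type. Lmod1, a leiomodin that nucleates actin filaments, read 778 and 850.5 against 970.4 and 331, a log2 difference of -0.50 (SE 0.48) made up of 0.31 and -1.32 within replicate numbers 1 and 2. Synpo2, an actin-bundling protein, read 7247 and 6541 against 7596 and 5399 on its brightest probe set, a difference of -0.10 that was 0.13 with centred arrays. Both Cnn1 and Lmod1 had knockout replicate 1 highest and replicate 2 lowest, and so did Synpo2. A second Synpo2 probe set was 2110.4, 2561, 2264 and 867 on the arrays in the same order, so knockout replicate 2 stood further below the others there. Of its 2 other probe sets, both dimmer than the limit for testing, 1 gave -0.58 and was also lowest on knockout replicate 2, and 1 gave 0.17 and was not. Smtn, or smoothelin, of contractile smooth muscle, went the other way without overlap, at 1807 and 1972 against 2387 and 2139 (log2 difference 0.26, SE 0.20).

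The other thin filament genes are also used by many other cell types. Cnn2, the calponin of smooth muscle and non-muscle cells, read 7225 and 7308 in wild type against 7997 and 9886 in the labelled knockout, giving a log2 difference of 0.29 (SE 0.19) without overlap. Tropomyosins lie along actin and control its access to myosin. Tpm1 read 15216 and 27282 against 17336 and 27848, and was high on both replicate 2 arrays whatever the genotype. Its log2 difference was 0.11 (SE 0.38). Tpm2 had 0.06, Tpm4 0.05 and Cald1, or caldesmon, -0.11, all with overlapping groups. Other Cald1 probe sets gave -0.30, -0.38, -0.09 and -0.16, and with probe sets averaged Cald1 had -0.21, lower without overlap. Skeletal muscle also uses Tpm1 and Tpm2, and the summed level of 11 skeletal muscle markers was likewise high on both replicate 2 arrays, at 206581 and 231719 against 137204 and 147501. The part of skeletal muscle in these values was not tested.

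Myosin and the enzymes that switch it were lower in 6 of 7 genes, with a median log2 difference of -0.20, and with centred arrays in 3 of 7 with a median of 0.03. Between the replicate 2 arrays all 7 were lower, at a median of -0.62, and 4 of 7 with centred arrays, at -0.25. Between the replicate 1 arrays the median was 0.02. Myh11, the smooth muscle myosin heavy chain, read 4528 and 5820.2 in wild type against 5471 and 2197 in the labelled knockout, so knockout replicate 1 lay within wild type and replicate 2 far below it. Its log2 difference was -0.56 (SE 0.40), and 0.27 and -1.40 within replicate numbers 1 and 2. Mylk, the myosin light chain kinase, read 19835 and 20516 against 17021 and 11619, the lower values without overlap. Its log2 difference was -0.52 with a 95% interval from -1.16 to 0.12 (limma adjusted p = 0.875), and its 2 other probe sets gave -0.41 and -0.79.

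The light chains and the phosphatase subunits come next in the cycle. Myl9, the regulatory light chain that the kinase phosphorylates, read 10996 and 14817 in wild type against 12996 and 13053 in the labelled knockout, giving a log2 difference of 0.03 (SE 0.23). Myl6, the essential light chain, had -0.02 (SE 0.17), and 2 brighter probe sets that the annotation shares between Myl6 and 2 pseudogene symbols gave 0.10 and 0.15. For the phosphatase, Ppp1r12a, the main targeting subunit, had -0.15, and its muscle relative Ppp1r12b had -0.20, with 0.32 and -0.73 within replicate numbers 1 and 2. Ppp1r14a, or CPI-17, which inhibits the phosphatase, read 595 and 529 against 532 and 339.8, a log2 difference of -0.39 (SE 0.33). Groups overlapped for all 3 of these genes, though Ppp1r14a was lower without overlap after quantile normalization and after centring.

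Among modulators of relaxation and intermediate filaments, Hspb6, Kcnmb1 and Synm were lowest on knockout replicate 2 and Des was highest there. Hspb6, a small heat shock protein phosphorylated during cyclic nucleotide relaxation, read 3926 and 4293 in wild type against 5678 and 2612 in the labelled knockout, so the genotype mean differed by -0.09 and the knockout arrays by far more. Kcnmb1, the beta subunit of the smooth muscle BK potassium channel, was dim at 125, 103, 137 and 68.9 and was not tested. Des, or desmin, the intermediate filament protein of muscle, read 4836 and 6621 in wild type against 7085 and 7638 in the labelled knockout, giving a log2 difference of 0.38 (SE 0.21) without overlap. Desmin is a protein of skeletal muscle too, whose summed markers were highest on knockout replicate 2 and lowest on wild-type replicate 1, as was Des, and their part in this was not tested. Synm, or synemin, which joins desmin filaments to the dense plaques, read 384 and 456 against 617 and 214, again on both sides of wild type, and was too dim to be tested.

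Of the 6 genes for integrins and actin linkers, 4 were lower, and with centred arrays 1 was. Itga8, an integrin alpha chain of smooth muscle and mesenchyme, read 4174 and 3997 in wild type against 3727 and 2356 in the labelled knockout, giving a log2 difference of -0.46 (SE 0.24) without overlap. Itga5, the fibronectin receptor chain, read 3596 and 3461 against 4089 and 4028 on its brightest probe set, a difference of 0.20 without overlap. Its 3 dimmer probe sets gave -0.50, -0.89 and -1.26. Itga1, a collagen receptor chain, had -0.05. Vcl, or vinculin, which ties integrin plaques to actin, read 20903 and 21913 against 19987 and 18051, without overlap. Its log2 difference was -0.17 (SE 0.25). With centred arrays the groups overlapped and the difference was 0.06, and they also overlapped after quantile normalization. A second Vcl probe set, below the limit for testing, gave -0.51. With probe sets averaged Vcl had -0.34, lower without overlap. Flna and Actn1, which crosslink actin, had 0.02 and -0.18.

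Of the 5 LIM domain proteins of the contractile cytoskeleton, Pdlim7 stood out. Pdlim7, or enigma, an adaptor of actin bundles, read 1959 and 1469 in wild type against 2319.8 and 3031 in the labelled knockout, higher without overlap. Its log2 difference was 0.64 with a 95% interval from 0.06 to 1.22 (SE 0.25, unadjusted p = 0.034, limma adjusted p = 0.875), and a second probe set gave 0.35. Csrp1, Fhl1, Pdlim3 and Tgfb1i1 (Hic-5, an SRF-linked adaptor of focal adhesions) lay between -0.08 and 0.00, all with overlapping groups. Of these, Tgfb1i1 read 3887 and 2870.4 against 4341 and 2301. A second Csrp1 probe set gave -0.47, and a second Fhl1 probe set, below the limit for testing, gave -0.78. With probe sets averaged, Csrp1 had -0.25 and Fhl1 -0.39, both lower without overlap.

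Cardiac muscle transcripts varied among the arrays in the same order as some of these genes. Myh6, the atrial myosin heavy chain, read 9554 and 3202 in wild type against 16214 and 294 in the labelled knockout. Nppa, the atrial natriuretic peptide, read 7728 and 2974 against 15926 and 131, and Myl7 and Tnni3, the atrial light chain and cardiac troponin I, had the same order, highest on knockout replicate 1, then wild-type replicates 1 and 2, and lowest on knockout replicate 2. These are 4 of the 8 cardiac markers, and the others, Myl4, Tnnt2, Sln and the dim Nkx2-5, did not share it. The same order held for 7 of the 36 smooth muscle genes, or 19.4%, namely Myocd, Cnn1, Synpo2, Ppp1r12b, Itga1, Tgfb1i1 and Kcnmb1, against 7.76% of all genes tested. Myocd and Cnn1 are known to be expressed in the embryonic heart as well. The summed cardiac list ran from 51244 on wild-type replicate 2 to 107421 on knockout replicate 1. The part of cardiac tissue in the Myocd and Cnn1 values was not tested.

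**Figure D4:**
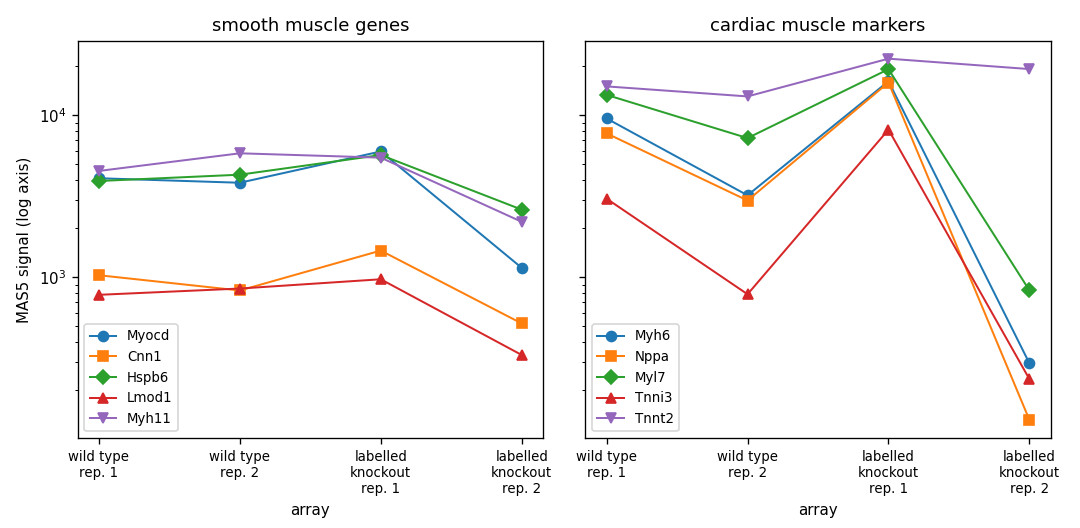
MAS5 signals (log axis) by array of 5 smooth muscle genes and 5 of 8 cardiac muscle markers, chosen after their values were seen; lines join the values of 1 gene. Myocd runs from 5975 on knockout replicate 1 to 1141 on replicate 2, Myh6 from 16214 to 294 and Tnnt2 from 22356 to 19280.1.

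Markers of other cell types that a dissected trachea can hold were summed by list. Pericytes and vascular mural cells share contractile genes with smooth muscle. Their 8 markers summed to between 36267 and 36480 on 3 arrays and to 25421 on knockout replicate 2. Of the 8 markers 7 were lowest there, as were 32% of all genes tested. Rgs5, a pericyte regulator of G-protein signalling, read 10144 and 10241 in wild type against 9788 and 5874 in the labelled knockout. Endothelial markers summed to between 9837 and 12697, with 5 of 6 lowest on knockout replicate 2. Of the 4 markers of squamous oesophageal epithelium, the keratins Krt4 and Krt13 were at 5928 and 5761 on knockout replicate 2 and at or above 7536 elsewhere. Krt6a was highest there, at 3329 against 1639 to 1887, and Sprr3 was lowest on wild-type replicate 1. Fibroblast markers, summed, ran from 87557 to 120493 and none of the 6 was lowest on knockout replicate 2. Thymocyte markers summed to between 3519 and 20337, salivary gland markers to between 34.9 and 33520, cartilage markers to between 50959 and 77535 and airway epithelial markers to between 31423 and 40492. Some markers were very dim on an array, such as Smgc of the salivary gland at 3.74 on wild-type replicate 1. The part of these cell types in the smooth muscle values was not tested.

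Leaving out knockout replicate 1, so that replicate 2 alone stood against both wild-type arrays and was assumed to vary like the other group, 5 of the 34 tested genes passed, all lower, where 4.21% of all genes tested passed. They were Myocd (log2 difference -1.78), Myh11 (-1.22), Actg2 (-1.07), Itga8 (-0.79) and Lmod1 (-1.26). This fit holds no spread between knockout arrays, so passing says only that knockout replicate 2 differed from wild type, not that the genotypes did. Myocd, Myh11 and Lmod1 had already been picked out above for low signal on that array, so their passing is not a separate result. With all 4 arrays Myocd had an SE of 0.65 (limma adjusted p = 0.905). Without knockout replicate 2 none passed, and the log2 differences of Myocd, Myh11 and Lmod1 were 0.59, 0.09 and 0.25. Each knockout sample set alone against wild type thus gave these 3 genes opposite signs, whereas Actg2 and Itga8 remained lower, at -0.36 and -0.13.

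Non-muscle and adhesion relatives of these genes were counted in the same way. The list of 11 non-muscle paralogs also held Flnc, which is not a non-muscle gene, and the counts include it. Of the 11, 10 were measured, 4 lower and 6 higher. Their median log2 difference was 0.02, and 0 were lowest on knockout replicate 2. The 4 with the smallest unadjusted p were Tpm3, a tropomyosin of many cells, Flnc, a muscle filamin, Actn4, an actinin, and Myl12a, a regulatory light chain, at 0.25, 0.24, 0.15 and -0.16.

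Of 18 dense plaque and stress fibre genes 17 were measured, 7 lower and 10 higher, with a median of 0.14 and 7 lowest on knockout replicate 2, or 41.2%. Zyx, or zyxin, a LIM protein of focal adhesions and stress fibres, read 1896 and 1570.4 in wild type against 2887 and 2860.1 in the labelled knockout. Both knockout arrays were above both wild-type arrays, and the log2 difference was 0.73 (SE 0.20, unadjusted p = 0.0087, limma adjusted p = 0.875). Tln1, or talin, which activates integrins, had 0.38, and Csrp2 and Nexn had 0.23 and 0.27. No gene of either list passed after adjustment over all genes.

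Besides the brightest, 22 of the genes had 41 further probe sets, of which 32 were lower in the labelled knockout, with a median of -0.26 and 30 lowest on knockout replicate 2. Of the 20 below the level limit 16 were lowest there, with a median difference of -0.56, where over all probe sets below the limit 46.1% were and the median was -0.32. Of the 21 above the limit 14 were lowest there, with a median of -0.26, where over all probe sets above it 39.3% were and the median was -0.02. Examples chosen after their values were seen are the second Myh11 probe set, at 275, 251, 279 and 23.7 on wild-type and then knockout arrays, and the second Kcnmb1 probe set, at 225, 139.8, 130.4 and 5.28.

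**Figure D5:**
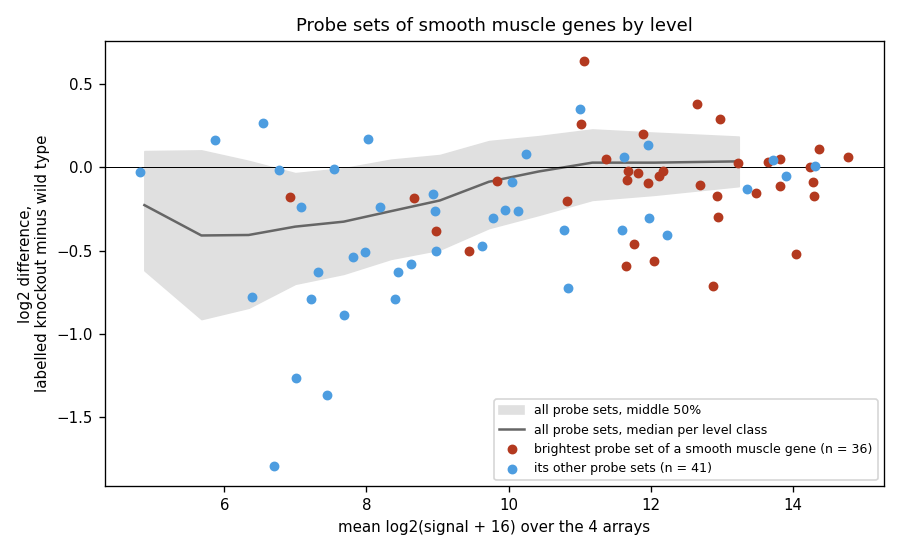
Log2 difference, labelled knockout minus wild type, against mean level for the 36 brightest and 41 other probe sets of the smooth muscle genes, over the median and middle 50% of all probe sets in 12 level classes. The median of all probe sets runs from -0.41 in a dim class to 0.04 in the brightest, and 32 of the 41 other probe sets lie below 0.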

How the data were processed

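Per the submitters' processing notes the authors used MAS5, and the deposited intensity values hold 1 linear signal per probe set and array. The sources used here give no MAS5 version or settings. With 2% of values trimmed at both ends, each array averaged 1500, the mark of a common scaling target. The labels' protocols describe amplification of small RNA amounts, which can favour 3′ ends.

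Control probe sets (64) and probe sets listed to several genes or none were left out, and each gene was read on its brightest probe set. Genes whose mean log2 level reached the median of all probe sets (a signal of 397) were tested. The test was limma 3.58.1 under R 4.3.3 on log2(signal + 16), by lmFit and then eBayes with trend, on genotype alone. Benjamini-Hochberg adjustment ran over 11694 genes. Log2 differences include the pseudocount, so those of dim genes are understated. With 2 arrays a group an exact permutation test, two-sided, cannot reach below 0.333. The code was tested on simulated data.

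The genes and lists were chosen with earlier results of these data known. Values per array were to be given for 13 genes set by name and for the 6 furthest in each direction, 18 in all, and for related lists up to 4 genes of smallest p. Other genes shown per array were added after their values were seen. Alternatives were pseudocounts of 1 and 64, other filters, scalings and probe sets, no trend, array weights, a replicate block and each array left out. Figures were drawn with matplotlib 3.10.9. Protein sequences were not analysed here, and 1 related gene list is not reported here.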

Additional observations from a re-analysis of the deposited data

How the results depend on the processing

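No gene and none of the 36 genes passed under the 10 alternatives that kept all 4 arrays. Leaving out 1 array gave between 0 and 492 genes, and between 0 and 5 of the smooth muscle genes. All genes passing numbered 492 without knockout replicate 1, 104 without knockout replicate 2, 1 without wild-type replicate 2 and 0 without wild-type replicate 1. The median of the set ranged from -0.22 without knockout replicate 1 to 0.15 with arrays centred. The number lower was 8 with centring, and between 15 and 27 with 1 array left out. The number lowest on knockout replicate 2 was 12 with centring, an alternative chosen after seeing the data. Of 18 genes given per array, 7 kept their sign under all 14 alternatives. With centring Acta2 became 0.14, Cnn1 0.15 and Synpo2 0.13, and with quantile normalization Cnn1 became 0.044. With all probe sets averaged Srf became -0.11, Itga5 -0.61 and Tpm1 -0.031. With 1 array left out, Acta2 ranged from -0.38 to 0.21, Cnn1 from -0.81 to 0.65, Myh11 from -1.22 to 0.092, Lmod1 from -1.26 to 0.25, Synpo2 from -0.35 to 0.14, Myocd from -1.78 to 0.59, Tagln from -0.71 to 0.12, Myl9 from -0.19 to 0.24, Srf from -0.13 to 0.23 and Tpm1 from -0.31 to 0.53. The cause was not tested.

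The samples share only a replicate number. The correlation of same-numbered deviations over 11694 genes was 0.32, from only 2 pairs. With the replicate block 0 genes passed by limma and the median was -0.08 again, with 5 of the smooth muscle genes and 1359 genes at an unadjusted p under 0.05, against 2 and 536 without it. Brightness limits the dimmest genes, Kcnmb1 and Synm, which were not tested.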
